A study of Mus musculus with 8 samples.

Results

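The genes described are those of somatostatin signalling in the medial prefrontal cortex (mPFC) of mice: the ligand genes Sst (somatostatin) and Cort (cortistatin) and the receptor genes Sstr1, Sstr2, Sstr3 and Sstr4. They were chosen by gene name, with earlier results of these data known, and found as 6 rows of a count table of 54532 genes. All 6 passed the filter on low counts. RNA-seq libraries of adult male C57BL/6 mice were compared as 4 from mice in a retrieval condition against 4 from mice in a non-retrieval condition, in a study of conditioned place preference for methamphetamine, in which an animal returns to a compartment it has learned to associate with the drug. Each library pooled 2 to 3 mice, with tissue taken 1 h after the preference test, so that the spread between libraries is one between pools. The labels give no strain or drug difference between the groups and do not say what non-retrieval mice experienced at the time of the test, so re-exposure, handling and memory retrieval cannot be told apart. The tissue was whole mPFC, so fewer cells of a type and less RNA per cell cannot be told apart either.

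Somatostatin is a neuropeptide that in the cortex is made by a large class of inhibitory interneurons, many of which contact the distal dendrites of pyramidal cells, and cortistatin is a related cortical peptide that binds the same receptors. The receptors couple to inhibitory G proteins of the Gi/o family, which lower cyclic AMP, open inwardly rectifying potassium channels and close presynaptic calcium channels. Sst is also a textbook target of the transcription factor CREB, which binds a cyclic AMP response element (CRE) close to its start site.

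Promoter windows are shown for Sst, Sstr2 and Sstr4, since the first holds the textbook element and the other two rose together in the retrieval group. RefSeq sequences of the build GRCm38.p6, from 250 bases before to 50 bases after each start, matched 5 of the 6 members in 6 windows, of which Sstr3 had 2, and Sstr1 had no entry. Capitals mark the full CRE, and sequences read 5′ to 3′ on the strand of the gene, from chr16:23890795-23891094 (minus strand) for Sst, chr11:113619077-113619376 (plus strand) for Sstr2 and chr2:148395127-148395426 (plus strand) for Sstr4.
Sst: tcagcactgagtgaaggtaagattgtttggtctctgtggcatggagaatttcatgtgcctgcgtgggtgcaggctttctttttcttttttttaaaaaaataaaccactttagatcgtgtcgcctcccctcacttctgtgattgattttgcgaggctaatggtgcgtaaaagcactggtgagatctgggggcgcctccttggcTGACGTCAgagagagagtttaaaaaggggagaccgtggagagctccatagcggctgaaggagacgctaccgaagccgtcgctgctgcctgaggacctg
Sstr2: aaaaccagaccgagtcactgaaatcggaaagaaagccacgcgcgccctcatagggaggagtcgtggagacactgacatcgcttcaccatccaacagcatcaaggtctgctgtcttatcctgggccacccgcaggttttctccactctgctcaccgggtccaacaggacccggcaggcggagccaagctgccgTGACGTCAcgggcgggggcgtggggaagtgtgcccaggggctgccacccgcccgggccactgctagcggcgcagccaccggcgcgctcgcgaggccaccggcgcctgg
Sstr4: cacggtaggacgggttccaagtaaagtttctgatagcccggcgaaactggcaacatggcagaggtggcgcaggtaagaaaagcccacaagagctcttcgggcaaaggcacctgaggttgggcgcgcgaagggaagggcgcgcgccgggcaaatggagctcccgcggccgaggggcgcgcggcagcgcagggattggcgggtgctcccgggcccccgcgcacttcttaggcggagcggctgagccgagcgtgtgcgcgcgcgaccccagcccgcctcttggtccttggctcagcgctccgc

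The full element, TGACGTCA, reads the same on both strands and was found 48 bases upstream of the RefSeq start in Sst and 58 bases upstream in Sstr2. It occurred in 588 of 32851 promoter windows of the same length (1.79%). Its shorter core TGACG, searched on both strands outside the full element, was found 18 bases upstream in Cort and 9 bases upstream in 1 of the 2 windows of Sstr3, against 19.5% of all windows. Neither an AP-1 site (TGANTCA, in 7.81% of all windows) nor an EGR site (GCGTGGGCG, in 0.612%) was matched in a window of these genes, and the Sstr4 window held none of the motifs searched. These are matches of letters and not measured binding sites.

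Total counts per library ran from 25013503 to 29547978. Values are given as CPM, the counts of a gene relative to a fixed total per library, scaled with TMM factors of 0.986 to 1.01, and groups were compared with the quasi-likelihood test of edgeR over 16745 genes, with a gene called at an adjusted p under 0.05. Changes are given as the log2 ratio (log2 fold change) of retrieval over non-retrieval. Of 12 activity-regulated genes 8 rose, 0 fell and 4 did not pass (66.7% called, against 4.57% of all tested genes). Among them Fos, the immediate early gene used to mark active neurons, rose by 2.21 (SE 0.16), Arc by 2.15 (SE 0.21) and Egr1 by 1.72 (SE 0.10) on the log2 scale, while Npas4 had -0.062 (edgeR adjusted p = 0.879), and Vgf, Crem and Scg2 did not pass either. Retrieval replicate 2 stood apart in markers of the striatum, which lies beneath the mPFC, with a summed level of 448 CPM over 13 genes against 255 to 317 CPM in the other 7 libraries. All 15 markers of cortical excitatory neurons were detected in every library, at a summed level of 6154 to 7127 CPM.

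The receptors changed in opposite directions while neither peptide passed the test. Sstr2 and Sstr4 rose in the retrieval group, Sstr1 fell, and Sst, Cort and Sstr3 did not pass. The members were chosen with earlier results of these data known, so the shares that follow describe them and are not a test of the family. With 3 of 6 members called (50%), the background is 4.57% of all tested genes. Of the members 2 were higher, against 3.67% of genes, and 1 was lower, against 0.902%. An unadjusted p under 0.05 was reached by the same number, 3 members, against 18.5% of genes. The median log2 ratio of the 6 was 0.028, beside -0.0095 over all tested genes. Retrieval libraries lay wholly above non-retrieval libraries for 2 members, as for 6.59% of genes, and wholly below for 1, as for 4.53%, or 11.1% in both directions together.

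Sst was the most abundant member. Its level was 206, 263, 296 and 255 CPM in non-retrieval replicates 1 to 4 and 210, 284, 264 and 305 CPM in retrieval replicates 1 to 4. Replicate 1 was the lowest library of each group, and the groups overlapped over nearly their whole range. The means were 255 ± 37.3 and 266 ± 40.8 CPM (SD, n = 4), a log2 ratio of 0.059 (SE 0.11; edgeR adjusted p = 0.819) with a 95% interval from -0.17 to 0.29. Sst lies on chromosome 16 from 23889573 to 23890958 (minus strand, GRCm38; ENSMUSG00000004366) and has 2 exons.

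Sst was also set against the inhibitory neuron RNA of the same library. The log2 CPM of Sst exceeded the mean of 13 pan-GABAergic markers, among them the GABA-synthesising enzymes Gad1 and Gad2, by 2.56 ± 0.23 in non-retrieval and 2.59 ± 0.20 in retrieval (SD, n = 4). The difference of 0.030 was within the spread between libraries (exact two-sided permutation test over 70 arrangements, p = 0.83, smallest possible p 0.0286).

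Cort encodes a precursor whose peptide shares most of its receptor-binding core with somatostatin. It stood at 6.62, 8.61, 6.17 and 7.67 CPM in non-retrieval replicates 1 to 4 and at 5.92, 7.17, 6.59 and 9.31 CPM in the retrieval ones, from 172 to 257 counts per library. Retrieval replicate 1 was the lowest and retrieval replicate 4 the highest of all 8 libraries, so that one group spanned the other. The means of 7.27 ± 1.09 and 7.25 ± 1.46 CPM (SD, n = 4) gave a log2 ratio of -0.0025 (SE 0.14; edgeR adjusted p = 0.995; 95% interval -0.31 to 0.30). Cort (ENSMUSG00000028971) lies on chromosome 4 from 149125034 to 149126763 (minus strand) and has 2 exons.

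Sstr2, the receptor that is taken into the cell after it binds an agonist and the target of octreotide, rose. It was at 29.8, 34.2, 28.6 and 28.0 CPM in non-retrieval replicates 1 to 4 and at 34.8, 39.2, 39.0 and 42.3 CPM in retrieval replicates 1 to 4. The groups did not overlap, but the gap between retrieval replicate 1 and non-retrieval replicate 2 was narrow. The means were 30.1 ± 2.82 and 38.8 ± 3.09 CPM (SD, n = 4), a rise of 28.9% (log2 ratio of 0.37, SE 0.083, 95% interval 0.19 to 0.54; edgeR adjusted p = 0.0183). Sstr2 (ENSMUSG00000047904, chromosome 11, 113619342 to 113626028, plus strand) lies within Slc39a11, a zinc transporter gene on the opposite strand, and the exons of the 2 genes share 0 bases. Slc39a11 itself was at 15.2 ± 1.51 and 14.9 ± 1.02 CPM (SD, n = 4; log2 ratio -0.026, edgeR adjusted p = 0.915).

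Sstr4, a forebrain receptor linked to potentiation of the M-type potassium current in hippocampal neurons, rose as well. Its level was 21.7, 19.9, 19.2 and 21.7 CPM in non-retrieval replicates 1 to 4 and 25.98, 26.9, 26.1 and 23.2 CPM in the retrieval ones. These groups were also separate, and retrieval replicate 4, the highest library for Sstr2, was the lowest of its group for Sstr4. From 20.6 ± 1.31 to 25.5 ± 1.63 CPM (SD, n = 4), the rise was 23.8% (log2 ratio 0.31, SE 0.080, 95% interval 0.14 to 0.48; edgeR adjusted p = 0.0364). The gene (ENSMUSG00000037014, chromosome 2, 148395344 to 148396767, plus strand) has 1 exon.

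Sstr1, a receptor also described as an autoreceptor on hypothalamic somatostatin neurons, fell. It stood at 33.6, 38.0, 33.3 and 38.3 CPM in non-retrieval replicates 1 to 4 and at 28.0, 31.8, 28.3 and 28.8 CPM in retrieval replicates 1 to 4. Every retrieval library was below every non-retrieval one. The mean went from 35.8 ± 2.70 to 29.2 ± 1.76 CPM (SD, n = 4), a log2 ratio of -0.29 (SE 0.077, 95% interval -0.45 to -0.13; edgeR adjusted p = 0.0391). Sstr1 (ENSMUSG00000035431) lies on chromosome 12 from 58211772 to 58214444 on the plus strand.

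Sstr3, the receptor concentrated in the primary cilia of neurons, did not pass. Its values were 32.6, 36.8, 37.5 and 40.4 CPM in non-retrieval replicates 1 to 4 and 29.0, 37.1, 36.0 and 36.5 CPM in the retrieval ones. Retrieval replicate 1 lay well below the other 3 libraries of its group, which fell inside the non-retrieval range. The means were 36.8 ± 3.23 and 34.6 ± 3.78 CPM (SD, n = 4; log2 ratio -0.088, SE 0.089, 95% interval -0.28 to 0.099; edgeR adjusted p = 0.643). Sstr3 (ENSMUSG00000044933) lies on chromosome 15 from 78537008 to 78544685 on the minus strand. The fifth receptor gene, Sstr5, had 1 to 9 counts per library and was not tested.

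**Figure D1:**
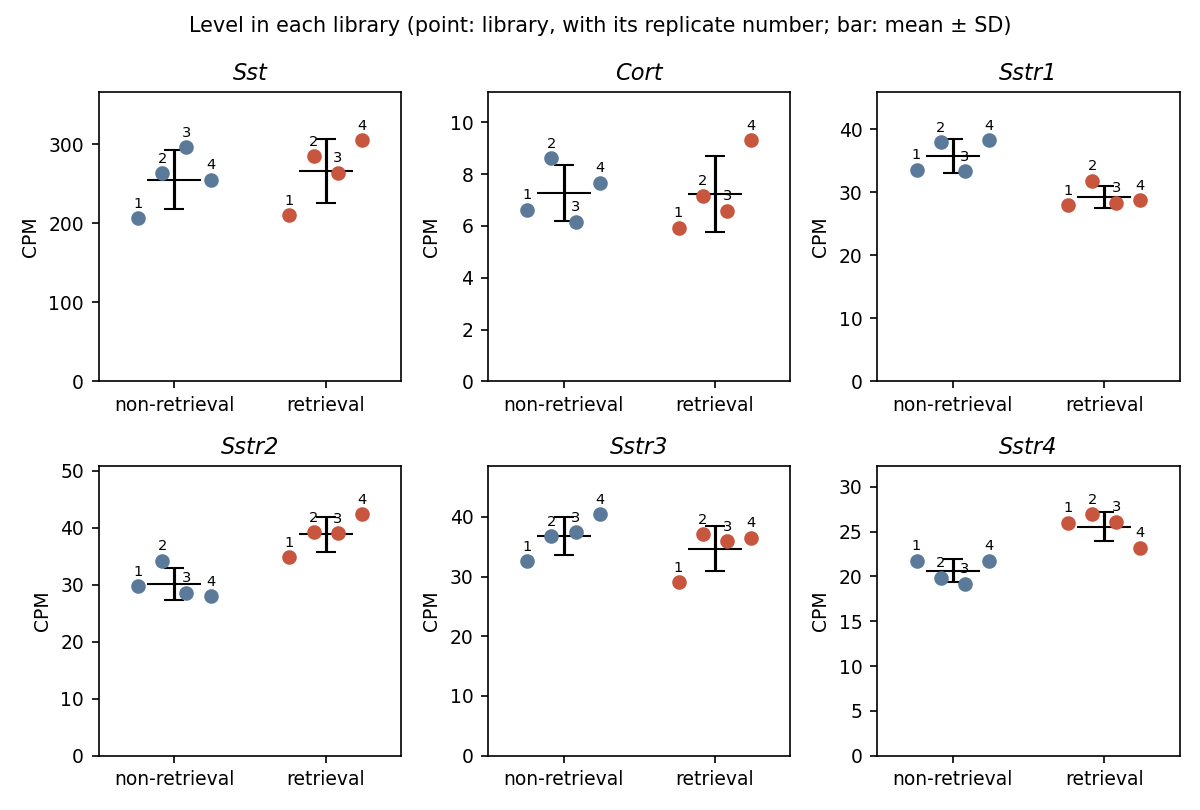
Level of the 6 genes in CPM (y axis from 0) in each library of the non-retrieval and retrieval groups; points are libraries with their replicate number and bars show mean ± SD (n = 4). The groups separate for Sstr1, Sstr2 and Sstr4 and overlap for Sst, Cort and Sstr3.

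**Figure D2:**
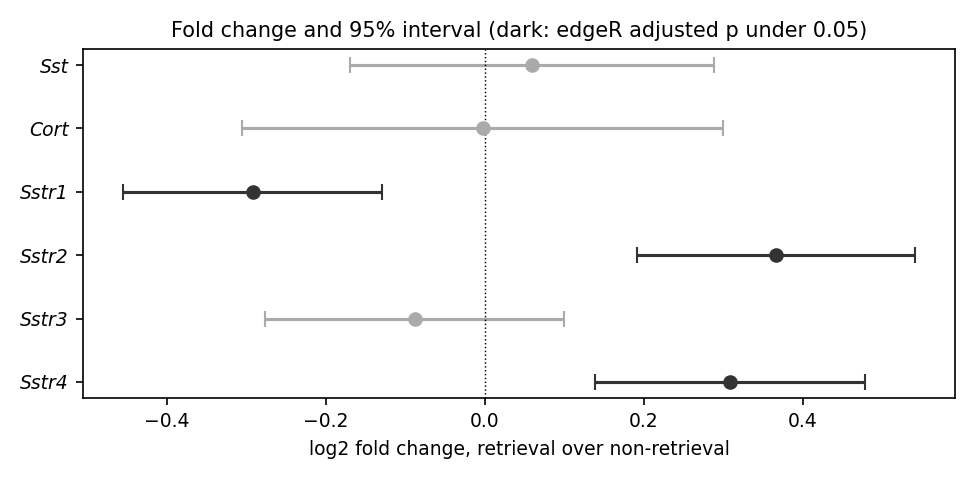
Log2 ratio of retrieval over non-retrieval (x axis) with its 95% interval for the 6 genes, dark where the edgeR adjusted p is under 0.05. The intervals of Sstr2 (0.19 to 0.54) and Sstr4 (0.14 to 0.48) lie above 0, that of Sstr1 (-0.45 to -0.13) lies below 0, and the other 3 include 0.

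Levels of different genes were compared per length, as CPM divided by the deposited gene length in kilobases (RPKM). Sst stood far above the others, at 361 ± 50.8 RPKM over the 8 libraries (SD). In non-retrieval the order below it was Sstr1 (17.5 ± 1.32 RPKM), Sstr4 (14.5 ± 0.92 RPKM), Sstr2 (14.1 ± 1.32 RPKM), Cort (10.7 ± 1.62 RPKM) and Sstr3 (8.52 ± 0.75 RPKM; SD, n = 4). In retrieval it was Sstr2 (18.1 ± 1.44 RPKM), Sstr4 (17.9 ± 1.14 RPKM), Sstr1 (14.3 ± 0.86 RPKM), Cort (10.7 ± 2.16 RPKM) and Sstr3 (8.02 ± 0.88 RPKM; SD, n = 4). Sstr1 was thus the most abundant receptor mRNA per length in one group and the third of 4 in the other. Per length, the levels of Sstr2 and Sstr4 did not differ beyond their spread in either group. These orders rest on the deposited gene lengths. In CPM, Sstr3 (36.8) was the highest receptor in non-retrieval, and Sstr4 (25.5) was below Sstr1 (29.2) in retrieval.

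The ratio of 2 receptors within a library does not depend on the scaling of libraries, but its size depends on the gene lengths used. Sstr2 per length was 0.846, 0.861, 0.820 and 0.698 times Sstr1 in non-retrieval replicates 1 to 4, and 1.19, 1.18, 1.31 and 1.41 times Sstr1 in retrieval replicates 1 to 4. Each non-retrieval library held more Sstr1 than Sstr2, and each retrieval library held more Sstr2 than Sstr1. Sstr4 over Sstr1 showed the same separation, with 0.752 to 0.929 in non-retrieval and 1.16 to 1.33 in retrieval. Sstr4 over Sstr2 overlapped, at 1.04 ± 0.13 and 0.997 ± 0.13 (SD, n = 4). Of the summed RPKM of the 4 receptors, Sstr1 made up 32.0 ± 1.03% in non-retrieval and 24.5 ± 0.82% in retrieval, Sstr2 25.8 ± 2.00% and 31.0 ± 1.91%, Sstr4 26.6 ± 1.79% and 30.8 ± 2.24%, and Sstr3 15.6 ± 1.25% and 13.7 ± 1.00% (SD, n = 4). The sum itself was 54.6 ± 2.53 RPKM in non-retrieval and 58.4 ± 2.64 RPKM in retrieval (SD, n = 4), with overlapping groups. These ratios and shares are given as a description of the same counts and were not tested. The separation of the ratios over Sstr1 follows from levels that already did not overlap between the groups.

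**Figure D3:**
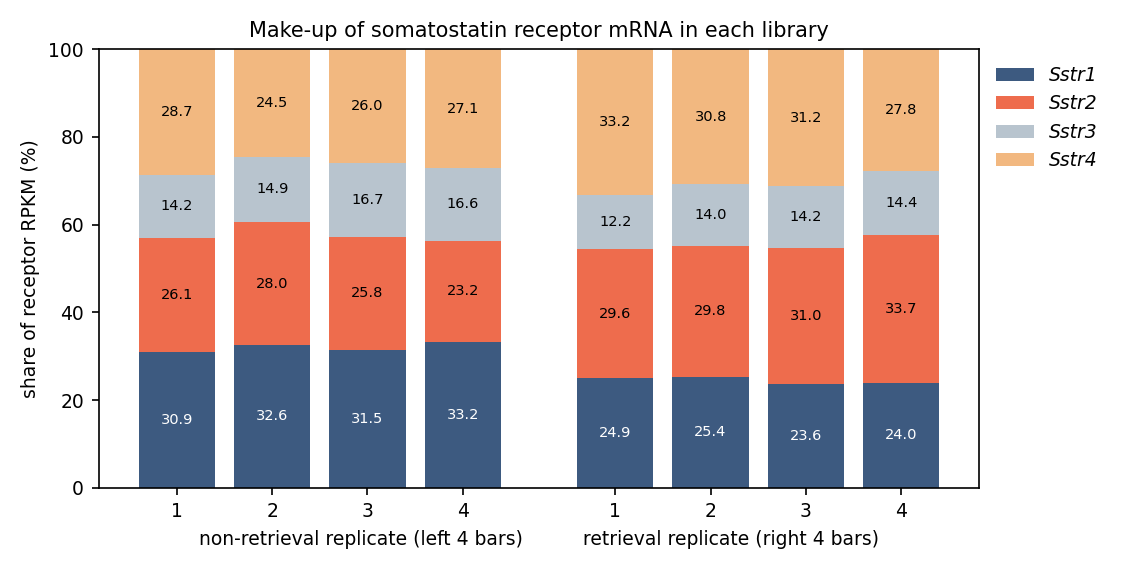
Share of each receptor gene in the summed RPKM of Sstr1 to Sstr4 (y axis, %) in each of the 8 libraries. Sstr1 takes 30.9 to 33.2% in the non-retrieval libraries and 23.6 to 25.4% in the retrieval libraries, while Sstr2 takes 23.2 to 28.0% and 29.6 to 33.7%.

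The direction of the 3 called receptors was the same in each of 18 alternatives, but their calls were close to the threshold. Their groups did not overlap, so leaving out 1 library could hardly have changed a direction. The log2 ratio ranged from -0.34 to -0.26 for Sstr1, from 0.32 to 0.43 for Sstr2 and from 0.27 to 0.35 for Sstr4. With 1 library left out, the call of Sstr1 ended on omitting non-retrieval 2, 3 or 4 (edgeR adjusted p = 0.101, 0.0593 and 0.139) and on omitting retrieval 1, 3 or 4 (edgeR adjusted p = 0.0515, 0.119 and 0.109). For Sstr2 the libraries whose omission ended the call were non-retrieval 3 and 4 (edgeR adjusted p = 0.0743 and 0.0747) and retrieval 3 and 4 (edgeR adjusted p = 0.0525 and 0.0710). For Sstr4 they were non-retrieval 2, 3 and 4 (edgeR adjusted p = 0.0866, 0.121 and 0.0682) and retrieval 2 and 3 (edgeR adjusted p = 0.0873 and 0.102). The call of Sstr4 also ended with library totals in place of TMM factors (edgeR adjusted p = 0.0520) and with upper-quartile factors (edgeR adjusted p = 0.0620). DESeq2 and limma-voom called all 3 receptors in the same directions. All genes together gave 615 higher and 151 lower calls, and 747 higher and 634 lower when length and GC content of the genes entered as an offset, under which the same 3 receptors were called.

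**Figure D4:**
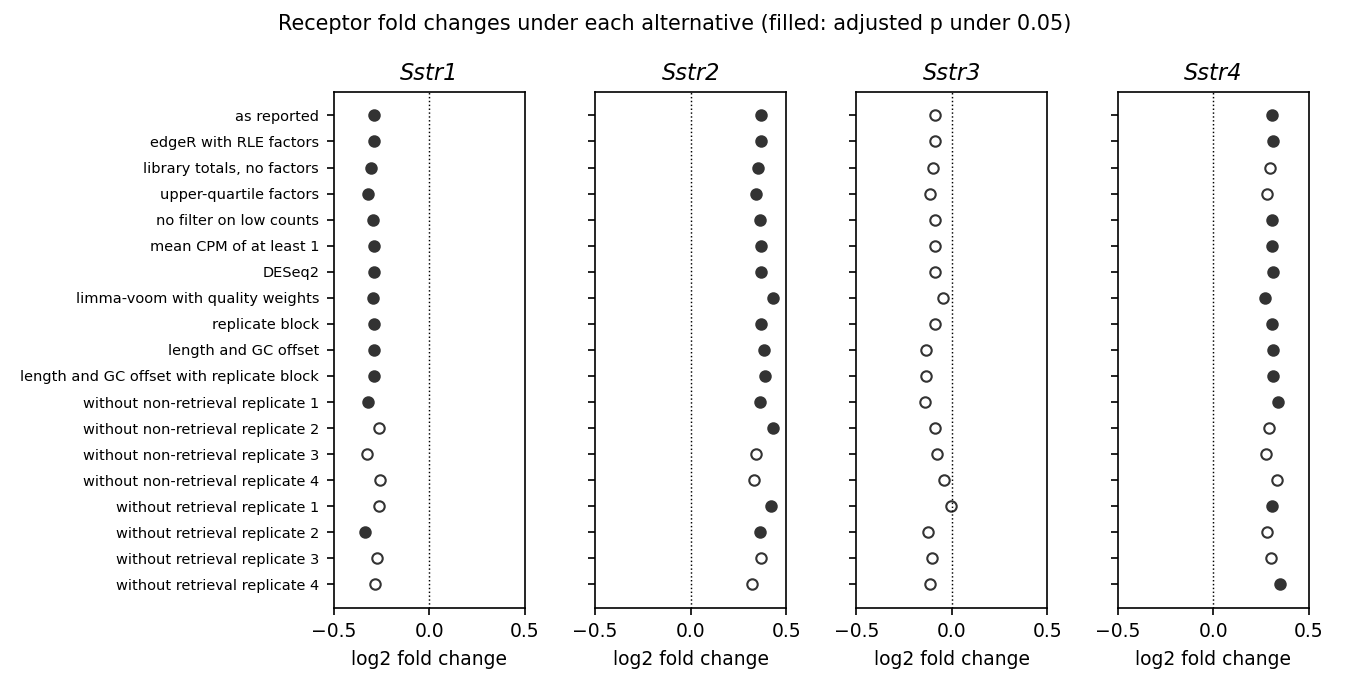
Log2 ratio (x axis) of the 4 receptor genes as reported and under each of 18 alternatives (rows), filled where the adjusted p is under 0.05. Sstr1 stays between -0.34 and -0.26, Sstr2 between 0.32 and 0.43 and Sstr4 between 0.27 and 0.35, and their open points lie mostly where 1 library is left out, while all points of Sstr3 are open.

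The genes that carry or end the signal of these receptors were called at a share near that of all genes. The list held genes for G protein subunits and their regulators, potassium and calcium channels, adenylyl cyclases, a phosphodiesterase, receptor kinases, arrestins, phosphatases and scaffolds. It also held the receptor gene Sstr5, which was not tested. Of its 34 genes 33 were tested, and 1 rose, 0 fell and 32 did not pass (3.03% called, against 4.57% of all genes; median log2 ratio 0.062). At an unadjusted p under 0.05 there were 11 of the 33, against 18.5% of all genes, and limma-voom called 4 higher and 2 lower. The gene called by edgeR was Gnai3, which encodes an inhibitory G protein alpha subunit, from 27.3 ± 2.38 to 34.8 ± 1.77 CPM (SD, n = 4; log2 ratio 0.35, SE 0.079; edgeR adjusted p = 0.0178). Leaving out replicate 4 of either group ended its call (edgeR adjusted p 0.0543 to 0.0744). The median became -0.0043 with the length and GC offset, where 1 gene was higher and 2 lower.

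Of 22 genes for the processing and secretion of neuropeptides, 1 rose, 0 fell and 21 did not pass (4.55% called; 6 at an unadjusted p under 0.05; median -0.012). Pcsk1, a prohormone convertase that cuts peptide precursors in secretory granules, rose from 49.4 ± 4.75 to 70.5 ± 7.52 CPM (SD, n = 4; log2 ratio 0.51, SE 0.084; edgeR adjusted p = 0.00191), and the call held with any 1 library left out. A second convertase, Pcsk2, was more abundant, at 555 ± 14.4 and 509 ± 18.0 CPM (SD, n = 4), and did not pass (log2 ratio -0.12, edgeR adjusted p = 0.241). All its retrieval libraries were lowest, as for 4.53% of genes. With the length and GC offset 3 genes of this list were higher and 4 lower. None of 9 enzymes that degrade neuropeptides was called in edgeR, where 1 had an unadjusted p under 0.05; DESeq2 gave 0 calls among them and limma-voom gave 1. The smallest p among them belonged to Ece1, an endothelin-converting enzyme, with a log2 ratio of 0.18 (edgeR adjusted p = 0.153), and to Ide, the insulin-degrading enzyme, with -0.27 (edgeR adjusted p = 0.310).

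Of 21 transcription factors and coactivators that act on the Sst promoter or in interneuron development, 1 rose, 0 fell and 20 did not pass (4.76% called; 4 at an unadjusted p under 0.05; median 0.12). The histone acetyltransferase gene Ep300, a CREB coactivator, rose from 72.3 ± 9.25 to 90.8 ± 2.31 CPM (SD, n = 4; log2 ratio 0.33, SE 0.079; edgeR adjusted p = 0.0261). Leaving out replicate 3 or 4 of either group ended the call of Ep300 (edgeR adjusted p 0.0539 to 0.10). With the length and GC offset the log2 ratio of Ep300 was 0.19 and it was not called, and DESeq2 called 3 genes of the list higher and limma-voom 5.

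Markers of somatostatin interneurons other than Sst had a median near 0, with single genes on both sides. Of 18 markers 1 rose, 0 fell and 17 did not pass (5.56% called; 6 at an unadjusted p under 0.05, against 18.5% of all genes; median -0.010), and their summed level was 553 to 604 CPM in non-retrieval and 570 to 639 CPM in retrieval, with no marker at 0 in any library. Nos1, the neuronal nitric oxide synthase gene that marks a sparse long-range somatostatin type, rose from 51.9 ± 10.5 to 69.3 ± 5.57 CPM (SD, n = 4; log2 ratio 0.42, SE 0.11; edgeR adjusted p = 0.0352), with overlapping groups. Its call was lost on leaving out 1, 3 or 4 of the non-retrieval replicates or 2, 3 or 4 of the retrieval replicates (edgeR adjusted p 0.0561 to 0.141), and with upper-quartile factors. Of the 18 markers 8 had a positive and 10 a negative log2 ratio. Among the negative ones were Chodl (-0.23, edgeR adjusted p = 0.706, at 0.98 and 0.84 CPM) and Npy (-0.030, edgeR adjusted p = 0.912). The rise of Nos1 is therefore given for 1 gene and not for a cell type. Of 13 pan-GABAergic markers none was called by edgeR, DESeq2 or limma-voom, though 2 had an unadjusted edgeR p under 0.05 (median 0.024). Of these, Gad1 had a log2 ratio of -0.15 (edgeR adjusted p = 0.193), with all retrieval libraries lowest. Gad1 was called lower with the length and GC offset (-0.19, edgeR adjusted p = 0.0167), with the replicate number as a block (-0.15, edgeR adjusted p = 0.0449) and with both (-0.19, edgeR adjusted p = 0.00544). Of 11 parvalbumin interneuron markers, of which Tac1 is also on the somatostatin list, 0 rose, 2 fell and 9 did not pass (18.2% called; 2 at an unadjusted p under 0.05; median -0.056). The genes that fell were Syt2, which triggers fast transmitter release at inhibitory synapses (log2 ratio -0.42, SE 0.076; edgeR adjusted p = 0.00427), and Pvalb itself (-0.41, SE 0.11; edgeR adjusted p = 0.0355), whose call was lost on leaving out 2, 3 or 4 of the non-retrieval replicates or 2 or 4 of the retrieval replicates (edgeR adjusted p 0.0576 to 0.148).

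Myelin markers also differed between the groups. Of 15 markers 8 rose and 0 fell (53.3% called, against 4.57% of all tested genes), and all 15 were higher on average (median 0.39). Their summed level was 3594 to 4247 CPM in non-retrieval and 4357 to 6282 CPM in retrieval, with none at 0. The number that rose was 3 on omitting non-retrieval 3 or 4 or retrieval 2 or 4, 4 on omitting non-retrieval 1 and 13 on omitting retrieval 1, and 0 fell in each case. The highest sum was that of retrieval replicate 2, the library that also stood apart in striatal markers. Without that library the log2 ratio was -0.34 for Sstr1 (edgeR adjusted p = 0.0274), 0.36 for Sstr2 (edgeR adjusted p = 0.0330) and 0.28 for Sstr4 (edgeR adjusted p = 0.0873). The part of oligodendrocyte RNA in the receptor differences was not tested. None of 10 astrocyte, 10 microglia or 10 endothelial and mural markers was called by edgeR. Of them 1, 1 and 3 had an unadjusted p under 0.05, against 18.5% of all genes. DESeq2 called 0 of each, and limma-voom called 1 astrocyte, 0 microglia and 1 endothelial or mural marker.

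**Figure D5:**
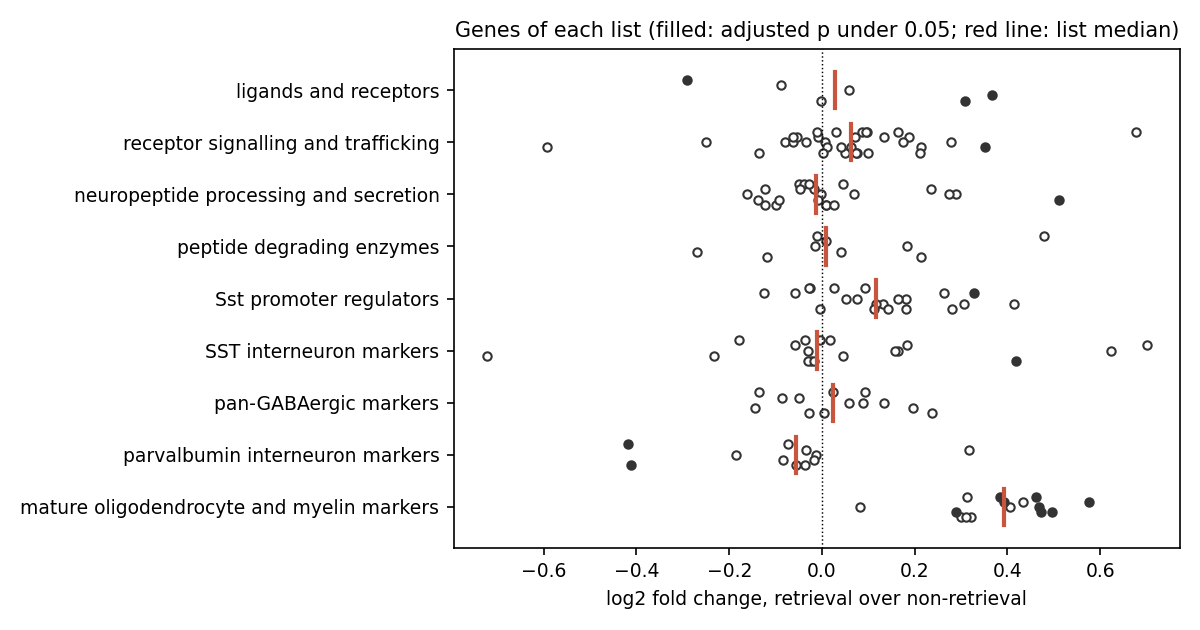
Log2 ratio of retrieval over non-retrieval (x axis) of each tested gene in 9 lists (rows), filled where the edgeR adjusted p is under 0.05, with the median of each list as a red line. The medians lie between -0.056 and 0.12 for all lists shown except the myelin markers, at 0.39. Among the lists not shown are the striatal markers, with a median of 0.27.

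The genes whose level ran most closely with each member over the 8 libraries were found by Pearson's r of log2 CPM among 13247 other protein-coding genes averaging 1 CPM or more. With so few libraries and so many genes the values of r are a description only. For Sst they were Gm42517 (r = 0.994), Fbxw8 (r = 0.977) and Tysnd1 (r = 0.975), and for Cort they were Rtl8c (r = 0.957) and Rab8a (r = 0.951). Sstr2 ran closest with Frmpd3 (r = 0.996), March4 (r = 0.990) and Amotl1 (r = 0.985), and Sstr4 with Fhod1 (r = 0.953), Tbc1d31 (r = 0.951) and Cep192 (r = 0.949). Sstr1 ran closest with 4930539E08Rik (r = 0.968), Tcta (r = 0.965) and Galt (r = 0.959), and Sstr3 with Cdipt (r = 0.989), Sept5 (r = 0.984) and B3gat3 (r = 0.983). Of the genes named here for their likeness, Amotl1 (log2 ratio 0.28, edgeR adjusted p = 0.0478) and 4930539E08Rik (-0.38, edgeR adjusted p = 0.0412) were called.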

How the data were processed

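The authors deposited 1 table of raw counts for each gene, which the submitters' processing notes tie to HISAT2 2.0.5, featureCounts 1.5.0-p3 and GRCm38. The sources used here give no annotation release or strand setting, so opposite-strand overlaps could not be separated. Columns were matched to samples by title, and the deposited gene length was used for RPKM. The count tables were filtered with filterByExpr, which left 16745 genes, and tested with edgeR 4.0.16 in R 4.3.3 (TMM factors, quasi-likelihood F test, Benjamini-Hochberg adjustment over all tested genes). Standard errors were taken from the F statistic. Log2 CPM used a prior count of 2. Alternatives were other scaling factors and filters, DESeq2 1.42.0, limma-voom (limma 3.58.1), the replicate number as a block, a loess offset (span 0.5) for length and GC content (GENCODE M21 transcripts, 99.9% of tested genes), and leaving out each library. The members and the gene lists, with 226 symbols in all, were chosen with earlier results of these data known. Named genes were the members, Fos, Arc and Egr1, up to 4 called genes of each list or else the 2 with the smallest p, and the 3 most alike each member; not all of them are printed, and 1 gene alike a member is not reported here. The scripts were tested on simulated counts. As no label says whether pools came from separate cages or days, p-values measure the spread between these pools only.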

Additional observations from a re-analysis of the deposited data

Results flagged for a closer look

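Of 74 sets of 4 libraries checked over 37 genes, 6 held a library whose gap to the nearest of the others exceeded the 95% critical share of the range of the group (Dixon), and chance alone gives about 1 in 20. Among the somatostatin genes this was Sstr3 in retrieval replicate 1, at 29.0 CPM against 35.96 to 37.1 CPM in the other 3 retrieval libraries; without that library the log2 fold change of Sstr3 was -0.0041. Dlx6os1, a long non-coding RNA of inhibitory neurons, was at 10.7 CPM in non-retrieval replicate 1, with the nearest library at 9.49 CPM. Ermn, a myelin gene, was at 41.3 CPM in retrieval replicate 3 against 48.4 CPM or more in the other retrieval libraries. Flt1, an endothelial receptor gene, was at 64.1 CPM in non-retrieval replicate 4 against 72.0 CPM or more. Drd2, a dopamine receptor gene of striatal projection neurons, was at 7.45 CPM in retrieval replicate 2 against 2.18 CPM at most in the other retrieval libraries. Egr2, an immediate early gene, was at 41.2 CPM in retrieval replicate 4 against 31.9 CPM at most in the rest of its group.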

How the results depend on the processing

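Sst, Cort and Sstr3 were not called under any of 18 alternatives, and their log2 fold changes stayed between -0.028 and 0.16, -0.15 and 0.14, and -0.14 and -0.0041. Sstr4 had 0.30 with library totals and 0.28 with upper-quartile factors and was called in neither. With 1 library left out, values ran from -0.34 to -0.26 for Sstr1, from 0.32 to 0.43 for Sstr2 and from 0.27 to 0.35 for Sstr4, and the number of members called ran from 0 (on leaving out retrieval replicate 3, non-retrieval replicate 3 or non-retrieval replicate 4) to 3; these fits hold fewer libraries. The count of called genes, 766, was 1619 with limma-voom, 1381 with the length and GC offset, and 330 to 1360 with 1 library left out, the lowest without non-retrieval replicate 4 and the highest without retrieval replicate 1. With the replicate block it was 1791, and 1971 with both the replicate block and the offset, of which 49.7% were higher. Same-numbered libraries were not paired in the main test, as the labels do not explain what the replicate number stands for. The correlation of deviations between same-numbered libraries ran from 0.027 to 0.22, against -0.14 to 0.045 between libraries of different number. It passed 0.1 in 1 of 4 pairs, and all 8 libraries were closest to their own number. Whether the numbers mark pairs was not tested. The block changed no call of a member (Sstr1 -0.29, Sstr2 0.37, Sstr4 0.31). The cause of the shifts in the count of called genes was not tested. For the 31 other genes checked, 495 of the values under the alternatives kept their side of the threshold, 23 lost a call, 40 gained one and 0 reversed. The depth behind Cort was 172 to 257 counts per library.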

Other observations

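Further classes of neurons were examined, against a share of 4.57% called over all tested genes. The lists are not separate. Lamp5 is on both the VIP and LAMP5 list and the cortical excitatory list. Penk, of the VIP and LAMP5 list, and Tac1 are also on the striatal list. Of 14 markers of VIP and LAMP5 interneurons edgeR called none, though 2 had an unadjusted p under 0.05 (median log2 ratio of retrieval over non-retrieval 0.089), and their summed level was 923 to 1030 CPM in non-retrieval and 924 to 952 CPM in retrieval. The smallest p belonged to Prox1, a transcription factor of this lineage, at 0.34 (edgeR adjusted p = 0.0615), which DESeq2 and limma-voom called higher. Of 15 cortical excitatory neuron markers edgeR and DESeq2 called none and limma-voom 1, and 2 had an unadjusted edgeR p under 0.05 (median 0.040), led by the upper-layer gene Cux2 at 0.19 (edgeR adjusted p = 0.177) and the deep-layer gene Fezf2 at 0.21 (edgeR adjusted p = 0.182). Cux2 was called higher with limma-voom, and both Cux2 and Fezf2 with the replicate number as a block. Of 13 striatal markers 11 were tested and edgeR called none, though 4 had an unadjusted p under 0.05, against 18.5% of all genes (median 0.27). The smallest p belonged to Drd1 at 0.38 (edgeR adjusted p = 0.0716) and Drd2 at 1.23 (edgeR adjusted p = 0.0720). Without retrieval replicate 2 the median of these markers was -0.020. DESeq2 called 1 of them higher and limma-voom 0.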
